A study of Mus musculus with 12 samples.

Results

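Small intestine from mice given busulfan and a compound labelled AOS was compared with small intestine from mice given busulfan without AOS, across all genes of the deposited expression table. The comparison uses 6 of the 12 libraries of the series, chosen by their treatment labels: 3 labelled B+A10 (busulfan, AOS 10) and 3 labelled B+A0 (busulfan, AOS 0). All 12 libraries were total RNA libraries of small intestine from the outbred mouse stock ICR. The other 6 libraries received no busulfan and are 3 labelled AOS0 and 3 labelled AOS10. The labels do not expand AOS, and they give no unit for its 0 and 10, no busulfan dose, no route, no time and no age. Whether a group's 3 libraries are separate animals is also not stated, and the p-values therefore speak only of the spread between these libraries, which may be technical.

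The epithelium of the small intestine is renewed continuously from stem cells at the base of the crypts. Their progeny become absorptive enterocytes, mucus-secreting goblet cells, hormone-secreting enteroendocrine cells or Paneth cells, which release antimicrobial peptides into the crypt, while intraepithelial lymphocytes, mostly T cells, sit between the epithelial cells. Busulfan alkylates and cross-links DNA and is toxic to dividing cells, above all to blood-forming cells.

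The 6 libraries held 16014123 to 16818245 counts, of 16942 genes listed, and 12329 genes were tested. Levels are given as CPM, counts scaled to a common library total after TMM (trimmed mean of M values) scaling. Markers of epithelium were abundant in all 6 libraries, with Epcam at 1403 to 1628 CPM and Krt8 at 4294 to 5811 CPM. Markers of the other layers of the gut wall and of blood were low. Myh11 of smooth muscle did not exceed 0.667 CPM, Cdh5 of endothelium 0.0606 CPM and Hbb-bs of red blood cells 0.667 CPM. Of the fibroblast markers, Col1a1 did not exceed 0.753 CPM and Dcn 2.20 CPM. Genes that mark position along the small intestine varied between libraries. Distal Fabp6 was at 719, 394 and 215 CPM in B+A0 replicates 1, 2 and 3 and at 223, 226.8 and 376 CPM in B+A10 replicates 1, 2 and 3, with overlap. The 18 tested distal genes summed to 8608, 6165 and 9073 CPM against 4179, 5260 and 6291 CPM, with 10 above 0 and a median log2 fold change of 0.05. The 19 proximal genes summed to 4929, 2245 and 2980 CPM against 4200, 5507 and 3307 CPM, with 16 above 0 and a median of 0.19. Whether the groups differ in the stretch of intestine taken was not tested. In bulk tissue, fewer cells of a type and less RNA per cell cannot be told apart.

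In each group 1 library stood nearer to the other group than to its own. By the chi-square per degree of freedom between 2 libraries' counts, where a larger value is a larger difference, B+A0 replicate 1 differed less from B+A10 replicate 2 (17.0) than from B+A0 replicates 2 and 3 (28.6 and 34.6). B+A10 replicate 3 differed less from B+A0 replicate 2 (14.9) than from B+A10 replicates 1 and 2 (34.8 and 35.4). On the first principal component of the 6 libraries, which held 38.2% of the variance, the B+A0 libraries lay at -9.76, 18.9 and 30.4 and the B+A10 libraries at -11.9, -30.5 and 2.84.

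No gene passed the threshold between B+A10 and B+A0 (0% of 12329 genes, edgeR quasi-likelihood test, adjusted p under 0.05), and the smallest adjusted p was 0.0826. DESeq2 called 82 genes, 67 higher and 15 lower. At an unadjusted p under 0.05 there were 1210 genes (9.81%), of which 726 (5.89%) were higher and 484 (3.93%) were lower in B+A10. That fit took its spread from all 12 libraries, and the list counts below come from it. With only the 6 busulfan libraries in the fit, 639 of 12043 genes were at that p, 452 higher and 187 lower. The higher count then was 10 instead of 15 for conjugation genes, 15 instead of 19 for T and natural killer cell genes, and 9 in both for P450 genes. For immediate early genes it was 8 instead of 12, and for enteroendocrine genes 5 instead of 4. The lower count was 9 instead of 12 for cholesterol and fatty acid synthesis and 6 instead of 9 for the cell cycle. It was 0 instead of 3 for both proteasome and ribosomal protein genes, 6 in both for inducible defence, and 6 instead of 4 for Paneth cell genes. All 3 B+A10 libraries lay above all 3 B+A0 libraries for 596 genes (4.83%) and below them for 667 genes (5.41%), together 10.2% of the genes tested. The log2 fold change was above 0 for 51.8% of genes, with a median of 0.01. Differences of more than 2-fold at an unadjusted p under 0.05 were mostly upward, with 161 higher and 19 lower.

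The number of genes called depended on the 2 libraries that stood apart. When B+A0 replicate 1 was left out, 43 genes were higher and 2 lower by edgeR at an adjusted p under 0.05. Leaving out B+A10 replicate 3 gave 43 higher and 8 lower. With any of the other 4 libraries left out, none was called. The 2 libraries were those nearer to the other group, so leaving either out favours more calls. These calls are therefore no added support for a gene. Of the 45 and 51 genes called in these cases, 6 were the same genes, that is 13.3% and 11.8% of them: Adh1, Pard3b, Klf3, Rdh7, Arhgef10l and Pla2g5. The counts over all genes at an unadjusted p under 0.05 moved too. Without B+A10 replicate 3 they were 2261 of 12498 genes (1254 higher, 1007 lower), and without B+A0 replicate 1, 1943 of 12496 (1248 and 695). Without B+A0 replicate 3 they were 614 of 12501 (428 and 186), and without B+A10 replicate 2, 853 of 12495 (575 and 278). Without B+A0 replicate 2 they were 1018 of 12505 (549 and 469), and without B+A10 replicate 1, 1377 of 12492 (737 and 640). List counts below from fits without 1 library are to be read against these counts, not against the shares of the full fit.

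**Figure D1:**
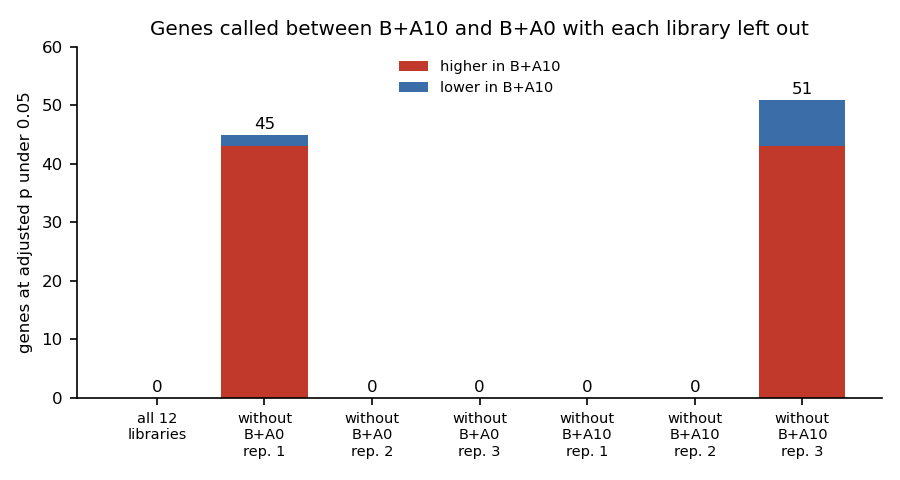
Number of genes called between B+A10 and B+A0 at an adjusted p under 0.05 (y axis) with all 12 libraries in the fit and with each of the 6 busulfan libraries left out (x axis); red counts genes higher and blue genes lower in B+A10. Bars stand only with B+A0 replicate 1 left out (45 genes) and with B+A10 replicate 3 left out (51 genes), the libraries that stood nearer to the other group.

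**Figure D2:**
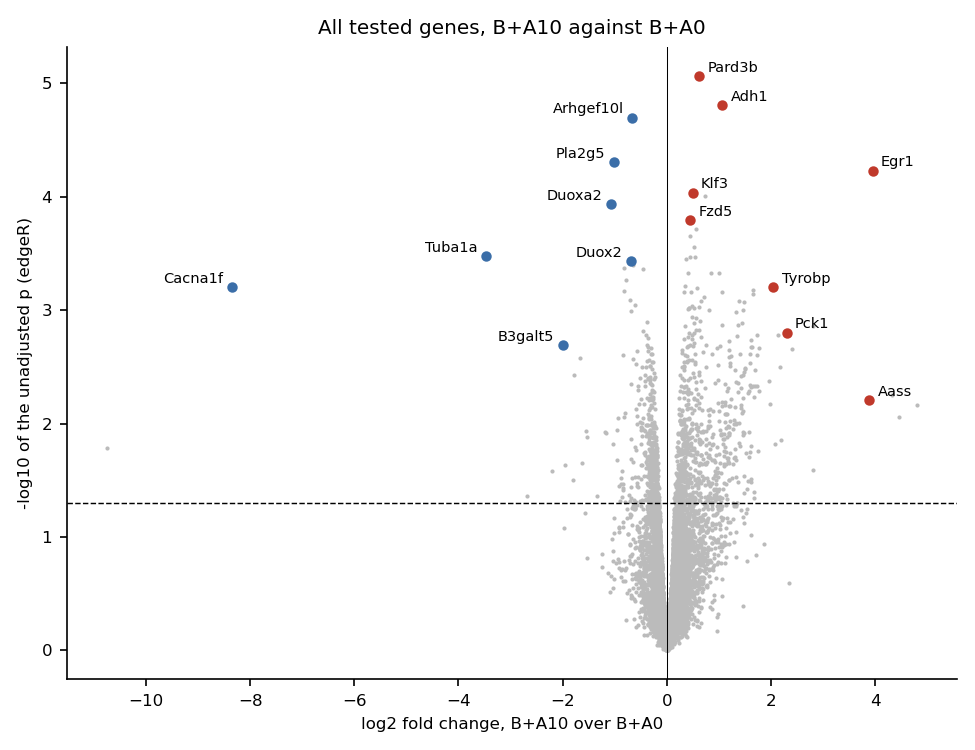
Each point is 1 of the 12329 tested genes, with the log2 fold change of B+A10 over B+A0 on the x axis and -log10 of the unadjusted edgeR p on the y axis; the dashed line marks an unadjusted p of 0.05, and named genes are coloured red where higher and blue where lower in B+A10. Pard3b and Adh1 stand highest on the right and Arhgef10l and Pla2g5 on the left, and none of the points passed after adjustment.

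Epithelial oxidase and defence genes were lower in B+A10. Of 32 genes listed as inducible epithelial defence, 23 were tested, and 17 of these were below 0, with a median log2 fold change of -0.38. At an unadjusted p under 0.05, 6 members were lower (against 3.93% of all genes) and 1 was higher, and 6 had groups that did not overlap, all lower in B+A10 (against 5.41% of all genes). The lower count was 3 without B+A0 replicate 3. With no library left out, the lower ones at that p were Duoxa2, Duox2, Tgm2, Fut2, Reg3b and Reg3g.

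Duox2 encodes the dual oxidase with which gut epithelium releases hydrogen peroxide into the lumen. Its level was 557, 540 and 655 CPM in B+A0 replicates 1, 2 and 3 and 313, 378 and 397 CPM in B+A10 replicates 1, 2 and 3. The groups did not overlap, and the B+A10 libraries lay within or below the range of the AOS0 and AOS10 libraries, 325 to 465 CPM. The log2 fold change was -0.69 (SE 0.14, and adjusted p = 0.254 by the edgeR quasi-likelihood test). Duoxa2, the maturation factor that brings DUOX2 to the cell surface, was at 108, 85.6 and 126 CPM in B+A0 and 40.6, 52.8 and 58.8 CPM in B+A10, again without overlap. Its log2 fold change was -1.07 (SE 0.20, and adjusted p = 0.178 by the edgeR quasi-likelihood test). In AOS0 Duoxa2 stood at 63.0 ± 15.3 CPM and in AOS10 at 58.4 ± 10.3 CPM (SD, n = 3). Both genes passed with the replicate number as a block, under which edgeR called 4 genes, all lower (Cacna1f, Duoxa2, Duox2 and Pla2g5), but the numbers did not pair the libraries.

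Duox2 and Duoxa2 lie head to head on mouse chromosome 2, and the starts used by the RefSeq promoter table (GRCm38.p6) are 673 bases apart. The 250 bases before each start are shown because the pair had the same direction: chr2:122298228-122298477 on the minus strand for Duox2, which lies inside the Duox2 gene record (122279246 to 122298740), and chr2:122298650-122298899 on the plus strand for Duoxa2. Both strands were searched for the CArG box, the site of serum response factor, for TGACG, the core of the cyclic AMP response element, and for TATAAA, the core promoter element bound by TBP, with no overlap between these matches in the sequences shown. Capitals mark a match, here TATAAA 30 bases before the Duoxa2 start. Of the 9897 tested genes with a promoter entry, 1.47% held the CArG box, 30.2% held TGACG and 8.23% held TATAAA in at least 1 entry. Such matches describe letters, not sites.
Duox2: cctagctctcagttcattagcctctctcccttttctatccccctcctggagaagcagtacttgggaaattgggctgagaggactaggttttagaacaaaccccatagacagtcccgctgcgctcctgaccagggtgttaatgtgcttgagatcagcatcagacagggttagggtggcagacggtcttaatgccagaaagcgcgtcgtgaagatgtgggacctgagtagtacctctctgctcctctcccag
Duoxa2: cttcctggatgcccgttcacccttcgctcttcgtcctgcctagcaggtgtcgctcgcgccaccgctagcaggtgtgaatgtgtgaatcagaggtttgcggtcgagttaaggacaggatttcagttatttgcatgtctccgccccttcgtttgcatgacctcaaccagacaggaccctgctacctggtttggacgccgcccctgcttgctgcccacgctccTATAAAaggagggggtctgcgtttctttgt

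Reg3b, a secreted C-type lectin that binds bacteria, was among the most abundant transcripts of the list, at 7130, 5785 and 9227 CPM in B+A0 and 2753, 3936 and 5553 CPM in B+A10. The 2 groups did not overlap, with the highest B+A10 library, replicate 3, just under the lowest B+A0 library (a log2 fold change of -0.85 with SE 0.34, and adjusted p = 0.447 by the edgeR quasi-likelihood test). Reg3g had a log2 fold change of -0.87 with groups that overlapped. Fut2, the fucosyltransferase that adds terminal fucose to surface glycans, was at 103, 76.8 and 178 CPM in B+A0 and 33.8, 49.6 and 74.5 CPM in B+A10 without overlap (a log2 fold change of -1.18). Il22ra1, the receptor chain through which interleukin-22 acts on epithelium, was the member above 0 at an unadjusted p under 0.05, with a log2 fold change of 0.35 (adjusted p = 0.383 by the edgeR quasi-likelihood test).

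Of the glycan-building enzymes, B3galt5 had the lowest log2 fold change. This enzyme builds type 1 chain glycans. It was at 145, 85.9 and 285 CPM in B+A0 and 27.5, 37.3 and 64.3 CPM in B+A10. B+A0 replicate 3 was the highest library, and the groups did not overlap (a log2 fold change of -1.999 with SE 0.52, and adjusted p = 0.280 by the edgeR quasi-likelihood test). Of 26 tested enzymes of this kind, 4 were lower (B3galt5, Fut2, B3gnt7 and Gcnt3, against 3.93% of all genes) and 1 was higher (against 5.89%) at an unadjusted p under 0.05. Dropping B+A0 replicate 3 left 1 lower, and dropping replicate 1 of either group left 2. The higher one, St6galnac1, which caps mucin glycans with sialic acid, was at 3.95, 0.417 and 0.243 CPM in B+A0 and 84.8, 14.0 and 1.66 CPM in B+A10. That difference rests on B+A10 replicate 1 and to a lesser degree replicate 2, and B+A10 replicate 3 lay below B+A0 replicate 1.

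Among secretory lineages, the Paneth cell list had 20 of 22 tested members below 0 (median -0.28), with 4 lower (against 3.93% of all genes) and 1 higher (against 5.89%) at an unadjusted p under 0.05. The lower count came to 1 when B+A0 replicate 3 was dropped, as it did for B+A10 replicate 1 and for B+A10 replicate 2, and to 2 for B+A0 replicate 1. Mptx2, a pentraxin of Paneth cells, was at 176, 147 and 197 CPM in B+A0 and 120, 86.2 and 87.8 CPM in B+A10, without overlap (a log2 fold change of -0.82, and adjusted p = 0.373 by the edgeR quasi-likelihood test). The member above 0 at that p was Reg3a, with a log2 fold change of 0.44. Alpha-defensins are a family of near-identical copies whose reads may be split between genes, and their values are uncertain. Among them Defa22 had a log2 fold change of -0.41, Defa5 of -0.34 and Defa24 of -0.20. Defa32, named after its values were seen, had 0 CPM in all 3 B+A10 libraries against 0, 10.1 and 30.7 CPM in B+A0 replicates 1 to 3, so its groups overlapped at 0. Lyz1, the Paneth cell lysozyme, overlapped between groups at 2668, 2918 and 2941 CPM against 2258, 2347 and 2783 CPM.

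Goblet cell genes did not share a direction, with 10 of 20 tested above 0 and a median of 0.01. At an unadjusted p under 0.05, 1 member was lower (against 3.93% of all genes) and 1 higher (against 5.89%). The higher one was St6galnac1, with its values given above. Retnlb, a goblet cell protein with antibacterial activity, was the lower one. It stood at 304, 279 and 427 CPM in B+A0 and 191, 188 and 194 CPM in B+A10. The 3 B+A10 libraries lay within a narrow range below all B+A0 libraries (a log2 fold change of -0.82 with SE 0.17, and adjusted p = 0.254 by the edgeR quasi-likelihood test). Muc2, the main secreted mucin, was at 1467 to 2049 CPM in the 6 libraries, with a log2 fold change of -0.02. Enteroendocrine genes lay mostly above 0, 23 of 25 tested (median 0.33). At an unadjusted p under 0.05, 4 were higher (against 5.89% of all genes) and none lower. In 8 the groups did not overlap, all higher (against 4.83%). Without 1 library the median ranged from 0.29 to 0.38. Between AOS10 and AOS0 the list median was 0.44, with 10 higher at that p (against 3.2%) and none lower.

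Other genes lower in B+A10 with small p included Pla2g5, a secreted phospholipase A2. It was at 59.4, 66.3 and 97.5 CPM in B+A0 and 33.2, 36.4 and 40.9 CPM in B+A10, against 32.3 ± 4.53 CPM in AOS0 and 29.5 ± 3.36 CPM in AOS10 (SD, n = 3). The busulfan groups did not overlap, and B+A0 was the group that stood away from the other 3 (a log2 fold change of -1.01 with SE 0.17, and adjusted p = 0.145 by the edgeR quasi-likelihood test). Pla2g5 passed in 5 of 13 alternatives.
Arhgef10l, a guanine nucleotide exchange factor, was at 40.7, 40.6 and 46.5 CPM in B+A0 and 26.7, 29.3 and 24.8 CPM in B+A10 (a log2 fold change of -0.66 with SE 0.10, and adjusted p = 0.0826 by the edgeR quasi-likelihood test). Tifa, an adaptor of innate signalling, had a log2 fold change of -0.77 and Nlrx1, a mitochondrial member of the NOD-like receptor family, of -0.64, both without overlap. Tat, tyrosine aminotransferase, was at 7.59, 4.77 and 9.88 CPM in B+A0 and 2.00, 1.38 and 3.62 CPM in B+A10 (a log2 fold change of -1.66).

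Among genes without overlap at an unadjusted p under 0.05, the largest lower values belonged to 2 genes that varied widely between libraries. Cacna1f, a voltage-gated calcium channel subunit known from the retina, had 285, 467 and 36 counts in B+A0 and 0, 0 and 2 counts in B+A10. It had 56, 409 and 4 counts in AOS0 and 0, 1 and 1 counts in AOS10, so it was at or near 0 in all 6 libraries with AOS 10, with or without busulfan. No fold is given against such counts (adjusted p = 0.255 after busulfan, edgeR quasi-likelihood test). Tuba1a, an alpha-tubulin, was at 27.9, 31.99 and 79.4 CPM in B+A0 and 3.64, 4.50 and 4.36 CPM in B+A10, with AOS0 at 19.3 to 40.2 CPM and AOS10 at 8.01 to 85.2 CPM. Its groups did not overlap (a log2 fold change of -3.48 with SE 0.72, and adjusted p = 0.254 by the edgeR quasi-likelihood test). However, Tuba1a may share reads with the near-identical Tuba1b and Tuba1c, which was not tested, so its level is uncertain.

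**Figure D3:**
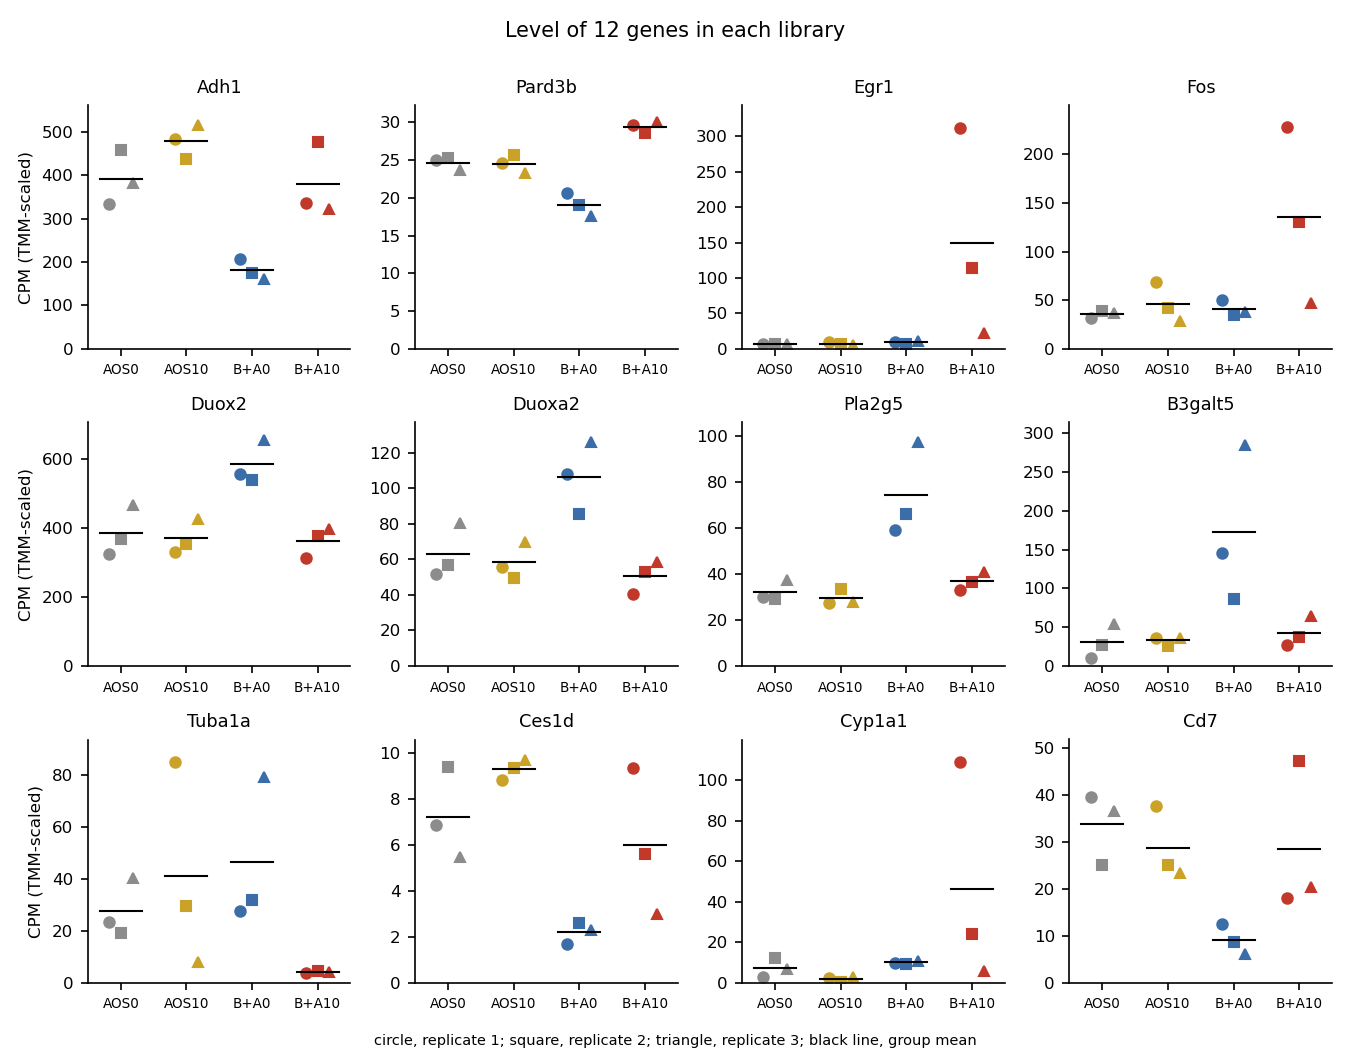
Level of 12 genes in each of the 12 libraries, in TMM-scaled CPM on y axes that start at 0, by group on the x axis; symbols mark the replicate and black lines the group mean. For Duox2, Duoxa2, Pla2g5 and B3galt5 the 3 B+A10 libraries lie below the 3 B+A0 libraries, for Adh1, Pard3b, Egr1, Ces1d and Cd7 above them, and for Fos and Cyp1a1 the groups overlap.

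Adh1 was the gene with the smallest p after Pard3b. It encodes an alcohol dehydrogenase that oxidises ethanol and also retinol, the first step towards retinoic acid. Its level was 206, 176 and 162 CPM in B+A0 and 336, 477 and 323 CPM in B+A10. All B+A10 libraries lay above all B+A0 libraries, with replicate 2 highest (a log2 fold change of 1.06 with SE 0.16, and adjusted p = 0.0826 by the edgeR quasi-likelihood test). In AOS0 Adh1 stood at 391 ± 63.0 CPM and in AOS10 at 479 ± 39.4 CPM (SD, n = 3), so B+A0 was the low group. Across the fits that left out 1 library the log2 fold change ranged from 0.87 to 1.17. Its promoter is shown because Adh1 and Pard3b had the smallest p of the genes higher in B+A10, and Adh1 was the more abundant. The 250 bases before the start are at chr3:138277335-138277584 on the plus strand (RefSeq, GRCm38.p6), and none of the 3 motifs above is in this window, so there are no capitals.
Adh1: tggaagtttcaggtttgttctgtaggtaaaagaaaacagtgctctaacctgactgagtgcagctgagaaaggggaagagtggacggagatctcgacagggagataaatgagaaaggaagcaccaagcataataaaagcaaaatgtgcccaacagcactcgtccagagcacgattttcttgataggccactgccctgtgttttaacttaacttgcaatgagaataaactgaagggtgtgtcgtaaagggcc

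Other genes of retinoid metabolism lay on both sides of 0. Of 21 tested members 5 were higher (against 5.89% of all genes) and 2 lower (against 3.93%) at an unadjusted p under 0.05, with a median of 0.17. The higher count came to 3 when B+A0 replicate 3 was dropped, as it did for B+A10 replicate 2, and to 9 for B+A10 replicate 3. The median ranged from 0.11, where B+A0 replicate 2 was dropped, to 0.35, where B+A0 replicate 1 was dropped. Rdh7, a retinol dehydrogenase, was at 64.7, 43.0 and 30.6 CPM in B+A0 and 103, 127 and 59.1 CPM in B+A10. Its B+A10 replicate 3 lay below B+A0 replicate 1, so the groups overlapped (a log2 fold change of 1.07 with SE 0.26, and adjusted p = 0.280 by the edgeR quasi-likelihood test). The other higher ones were Aldh1a1, which makes retinoic acid, at 0.47, Lrat, which esterifies retinol, at 0.47 and Adh4 at 0.68 on the log2 scale. The lower ones were Rdh11 at -0.22 and Bco1, which cleaves beta-carotene, at -0.56.

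Most genes of drug and xenobiotic metabolism lay above 0. Of 25 tested genes of glucuronidation, sulfation and ester hydrolysis, 23 were above 0 and 15 were higher at an unadjusted p under 0.05 (against 5.89% of all genes), with none lower and a median of 0.44. In 7 of them the groups did not overlap, all higher (against 4.83% of all genes). Ces1d, a carboxylesterase, was at 1.69, 2.62 and 2.30 CPM in B+A0 and 9.34, 5.63 and 3.01 CPM in B+A10. Replicate 3 was the lowest B+A10 library and replicate 1 the highest (a log2 fold change of 1.44 with SE 0.35, and adjusted p = 0.280 by the edgeR quasi-likelihood test). Ces2a was at 53.02, 38.3 and 34.2 CPM against 80.5, 75.1 and 56.5 CPM, without overlap (a log2 fold change of 0.76). Ugt1a1, which glucuronidates bilirubin, had 0.55 on the log2 scale, and because genes of the Ugt1a cluster share exons its count may hold reads of its neighbours. The list median was 0.46 with B+A0 replicate 1 and 0.50 with B+A10 replicate 3 left out. It ranged from 0.297, with B+A10 replicate 2 left out, to 0.518, with B+A0 replicate 2 left out, and was 0.305 without B+A0 replicate 3. The count at that p was 8 with either B+A0 replicate 3 or B+A10 replicate 2 left out.

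Of 22 tested glutathione transferases 16 were above 0, with a median of 0.17, and 4 were higher (against 5.89% of all genes) and 1 lower (against 3.93%) at that p. Dropping B+A10 replicate 2 took their median to 0.047 with 1 higher, and dropping B+A10 replicate 3 took it to 0.28 with 7 higher. When B+A0 replicate 3 was dropped it came to 0.11 with 2 higher.

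Cytochrome P450 enzymes and their receptors had a median of 0.53 over 22 tested genes, with 20 above 0, 9 higher (against 5.89% of all genes) and none lower at an unadjusted p under 0.05. Cyp2c68 was at 12.7, 11.7 and 9.94 CPM in B+A0 and 13.8, 20.9 and 18.5 CPM in B+A10, without overlap (a log2 fold change of 0.63). Cyp3a25 was at 33.4, 26.7 and 19.0 CPM against 41.2, 50.4 and 40.5 CPM, also without overlap (a log2 fold change of 0.74). Nr1i3, the constitutive androstane receptor, which switches on drug metabolism genes, had 0.66, and its target Cyp2b10 had 1.14 on the log2 scale, both with overlapping groups. Of the 22 genes, B+A10 replicate 2 was the highest of its group in 17 and replicate 3 the lowest in 17. The count at that p came to 6 when B+A0 replicate 2 was dropped, and likewise for B+A10 replicate 1 and for B+A10 replicate 2. Dropping B+A0 replicate 1 gave 13 genes (against 1248 of all 12496 genes in that fit) and a median of 0.74. Dropping B+A10 replicate 3 gave 14 genes (against 1254 of all 12498). The median came to 0.34 when B+A10 replicate 2 was dropped.

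Efflux pumps of the ATP-binding cassette family had 6 members higher (against 5.89% of all genes) and none lower at an unadjusted p under 0.05 among 22 tested (median 0.16). The count came to 3 when B+A0 replicate 2 was dropped, as it did for B+A0 replicate 3 and for B+A10 replicate 1. The median ranged from 0.092, where B+A10 replicate 2 was dropped, to 0.37, where B+A0 replicate 1 was dropped. Abcc2, which exports conjugated compounds into the lumen, was at 38.5, 31.9 and 28.1 CPM in B+A0 and 46.0, 62.5 and 43.1 CPM in B+A10, without overlap (a log2 fold change of 0.62 with SE 0.14, and adjusted p = 0.255 by the edgeR quasi-likelihood test). Abcc6 had 0.62 and Abcb1a, P-glycoprotein, 0.46 on the log2 scale.

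Genes of mature enterocytes also differed between libraries of a group. Of 25 tested genes of the brush border and digestion 23 were above 0 (median 0.23), with 3 higher at an unadjusted p under 0.05 (against 5.89% of all genes), none lower and none without overlap. Dropping B+A0 replicate 1 gave 21 higher genes (against 1248 of all 12496 genes in that fit), and dropping replicate 2 of either group gave 0. B+A0 replicate 1 was the highest B+A0 library in 24 of the 25, against 17 of 22 P450 genes, 14 of 25 conjugation genes and 14 of 22 efflux pumps. B+A10 replicate 2 was the highest B+A10 library in 17 of the 25, against 17, 16 and 12 in those lists. Alpi, the alkaline phosphatase of the brush border, was at 671, 452 and 443 CPM in B+A0 and 670, 912 and 524 CPM in B+A10. The part of enterocyte content in the values of the metabolism genes was not tested.

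Immediate early genes, which are transcribed within minutes of a stimulus and without new protein synthesis, were high in part of the B+A10 libraries. Of 31 tested members 25 were above 0, with a median of 0.36. At an unadjusted p under 0.05, 12 were higher (against 5.89% of all genes) and 2 lower (against 3.93%). The groups did not overlap in 4 members higher in B+A10 (against 4.83% of all genes) and in 3 lower (against 5.41%). In 24 of the 31, B+A10 replicate 1 was the highest of its group, and in 24 replicate 3 was the lowest. Egr1, a zinc finger transcription factor, was at 9.72, 7.51 and 11.8 CPM in B+A0 and 312, 115 and 22.02 CPM in B+A10. The groups did not overlap, and the B+A10 libraries differed most among themselves, while AOS0 and AOS10 were at 5.94 to 9.52 CPM (a log2 fold change of 3.95 with SE 0.67, and adjusted p = 0.145 by the edgeR quasi-likelihood test). B+A10 replicate 3 was the B+A10 library nearest to B+A0 for Egr1, so leaving it out widens the difference. In that fit Egr1 had the smallest adjusted p, at 0.000548 by edgeR, which is no added support for the full fit. Across the fits without 1 library its adjusted p by edgeR reached 0.651 and its log2 fold change ranged from 2.82 to 4.46.

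Fos, a subunit of the AP-1 factor, was at 50.6, 34.4 and 37.7 CPM in B+A0 and 228, 130 and 47.3 CPM in B+A10, so B+A10 replicate 3 lay within the B+A0 range (a log2 fold change of 1.72 with SE 0.43, and adjusted p = 0.280 by the edgeR quasi-likelihood test). Zfp36, which speeds the decay of mRNAs with AU-rich elements, was at 132, 83.3 and 103 CPM in B+A0 and 223, 166 and 94.2 CPM in B+A10. Junb had a log2 fold change of 0.76 and Dusp1 of 1.01, each with overlapping groups. The Zfp36 relatives Zfp36l1 and Zfp36l2, which act on mRNA decay in the same way, did not overlap: Zfp36l1 was at 68.5, 67.8 and 74.6 CPM against 118, 99.8 and 89.4 CPM, and Zfp36l2 at 136, 157 and 157 CPM against 273, 222 and 180 CPM. The 2 members below 0 at that p were Gadd45g at -0.60 and Gadd45b at -0.38. The list median was 0.14 without B+A10 replicate 1, with 5 members higher, and 0.51 without B+A10 replicate 3, with 12. Dropping B+A0 replicate 2 also left 5 members higher.

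The promoters of Fos and Zfp36 are shown because both genes were highest in replicate 1 and lowest in replicate 3 of the B+A10 libraries. They are the 250 bases before the start at chr12:85473640-85473889 on the plus strand for Fos and at chr7:28379229-28379478 on the minus strand for Zfp36 (RefSeq, GRCm38.p6). Capitals mark 2 TGACG matches, 129 and 66 bases before the Fos start, TATAAA 33 bases before it, and a CArG box 58 bases before the Zfp36 start. Of 25 tested immediate early genes with an entry, 12% (3 genes) held the CArG box, 56% (14) held TGACG and 16% (4) held TATAAA. These are again matches in this window of at least 1 entry, against the shares over all genes given above.
Fos: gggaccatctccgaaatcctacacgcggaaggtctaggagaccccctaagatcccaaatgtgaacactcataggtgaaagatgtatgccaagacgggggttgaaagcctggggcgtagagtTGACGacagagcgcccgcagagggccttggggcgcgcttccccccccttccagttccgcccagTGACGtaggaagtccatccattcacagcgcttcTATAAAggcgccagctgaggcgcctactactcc
Zfp36: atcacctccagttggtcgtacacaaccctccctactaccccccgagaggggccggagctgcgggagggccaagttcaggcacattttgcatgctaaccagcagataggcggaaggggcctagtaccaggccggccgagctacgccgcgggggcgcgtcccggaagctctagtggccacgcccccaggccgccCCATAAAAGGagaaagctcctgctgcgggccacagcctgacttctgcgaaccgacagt

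Cyp1a1, a P450 that is a target of the aryl hydrocarbon receptor, was likewise highest in B+A10 replicate 1 and lowest in replicate 3 of that group. It was at 9.91, 9.35 and 10.97 CPM in B+A0 and 109, 24.01 and 6.07 CPM in B+A10. Replicate 3 lay below every B+A0 library, so the groups overlapped (a log2 fold change of 2.20, and adjusted p = 0.394 by the edgeR quasi-likelihood test).

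T cell and natural killer cell genes were higher in B+A10, and most of the difference lay in 1 library. All 28 tested members were above 0, with a median of 1.13, and 19 were higher at an unadjusted p under 0.05 (against 5.89% of all genes). In 11 of the 28 the groups did not overlap, against 4.83% of all genes. B+A10 replicate 2 was the highest of its group in 27 of 28. The summed level was 249, 170 and 151 CPM in B+A0 and 276, 519 and 281 CPM in B+A10, against 388 to 569.5 CPM in AOS0 and 377 to 465 CPM in AOS10. With B+A10 replicate 2 left out the median was 0.65 and 8 members were at that p. With B+A0 replicate 1 left out it was 1.48, with 22.

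Cd7, a surface protein of T and natural killer cells, was at 12.5, 8.76 and 6.06 CPM in B+A0 and 18.1, 47.3 and 20.3 CPM in B+A10, without overlap (a log2 fold change of 1.65 with SE 0.37, and adjusted p = 0.255 by the edgeR quasi-likelihood test). Itgae, the integrin that holds intraepithelial lymphocytes to E-cadherin, was at 7.65, 5.42 and 3.52 CPM against 10.1, 24.3 and 11.7 CPM, also without overlap. Gzma, a granzyme of cytotoxic cells, was at 32.6, 19.4 and 10.97 CPM against 31.05, 96.8 and 50.9 CPM, where B+A10 replicate 1 lay below B+A0 replicate 1. Ccl5 had a log2 fold change of 1.39, Thy1 of 1.34 and Cd160 of 1.63, all without overlap. Ptprc, which marks leukocytes in general, was at 5.58, 3.28 and 1.15 CPM against 2.91, 9.57 and 6.81 CPM, with overlap.

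Of the other immune lists, 11 tested myeloid genes summed to 115 to 155 CPM in the 6 libraries, and 7 mast cell and eosinophil genes to 23.5 to 51.5 CPM. The 10 tested B and plasma cell genes summed to 411 to 466 CPM. At an unadjusted p under 0.05, 1 of these 10 was higher (against 5.89% of all genes) and 1 lower (against 3.93%). Tyrobp, a signalling adaptor of myeloid and natural killer cells, had 7, 8 and 6 counts in B+A0 and 17, 49 and 21 counts in B+A10 (a log2 fold change of 2.05 with SE 0.46, and adjusted p = 0.255 by the edgeR quasi-likelihood test). Itgax, an integrin of dendritic cells that some intraepithelial T cells also carry, had a log2 fold change of 1.48, while Cd14 had -0.51 and Itgam -0.31, each without overlap between groups. Of 11 tested myeloid genes, 2 were higher (against 5.89% of all genes) and 2 lower (against 3.93%) at an unadjusted p under 0.05. Of 7 tested mast cell and eosinophil genes 1 was higher at that p (against 5.89% of all genes), Kit at 0.29. Mcpt1, a mucosal mast cell protease, was at 6.40, 6.97 and 10.004 CPM against 8.37, 24.8 and 7.30 CPM.

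Dividing-cell genes were slightly lower in B+A10. Of 50 tested genes of the cell cycle and DNA replication 46 were below 0, with a median of -0.16. At an unadjusted p under 0.05, 9 were lower (against 3.93% of all genes) and none higher. B+A0 replicate 1 was the lowest B+A0 library in 45 of the 50. Between AOS10 and AOS0 the same list had a median of -0.13, with 5 lower at that p (against 3.03% of all genes) and none higher. Ccnd1, the cyclin that carries cells into the cycle, was at 337, 313 and 352 CPM in B+A0 and 235, 250 and 250 CPM in B+A10. The groups stood well apart, and AOS0 and AOS10 were at 249 and 241 CPM on average (a log2 fold change of -0.45 with SE 0.10, and adjusted p = 0.254 by the edgeR quasi-likelihood test). Ccnb1, the mitotic cyclin, was at 65.4, 74.4 and 73.2 CPM against 57.4, 52.3 and 58.4 CPM (a log2 fold change of -0.34). Mki67, the proliferation marker, was at 150, 189 and 160 CPM against 130, 140 and 229 CPM, with overlap and a log2 fold change that rounds to 0. The list count was 18 with B+A0 replicate 1 left out (against 695 of all 12496 genes in that fit). It was also 18 with B+A10 replicate 3 left out (against 1007 of all 12498). With B+A0 replicate 3 left out it was 3 (against 186 of all 12501), as with B+A10 replicate 2 left out (against 278 of all 12495). Stem cell markers overlapped between groups, with Lgr5 at 9.66 to 15.6 CPM and Olfm4 at 706 to 1244 CPM.

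Genes of cholesterol and fatty acid synthesis were lower, with 29 of 32 below 0 (median -0.20) and 12 lower and none higher at an unadjusted p under 0.05 (against 3.93% of all genes). In 9 of the 32 the groups did not overlap, all lower (against 5.41% of all genes). Lss, lanosterol synthase, was at 73.5, 76.5 and 75.7 CPM against 55.4, 58.4 and 61.8 CPM (a log2 fold change of -0.36). Fdps had -0.33 and Nsdhl -0.26 on the log2 scale, without overlap. The same list had a median of -0.20 between AOS10 and AOS0, with 11 lower at that p (against 3.03% of all genes) and 0 higher, and these 2 comparisons share no library. The count after busulfan came to 4 when B+A0 replicate 3 was dropped and to 7 when B+A10 replicate 1 was dropped.

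**Figure D4:**
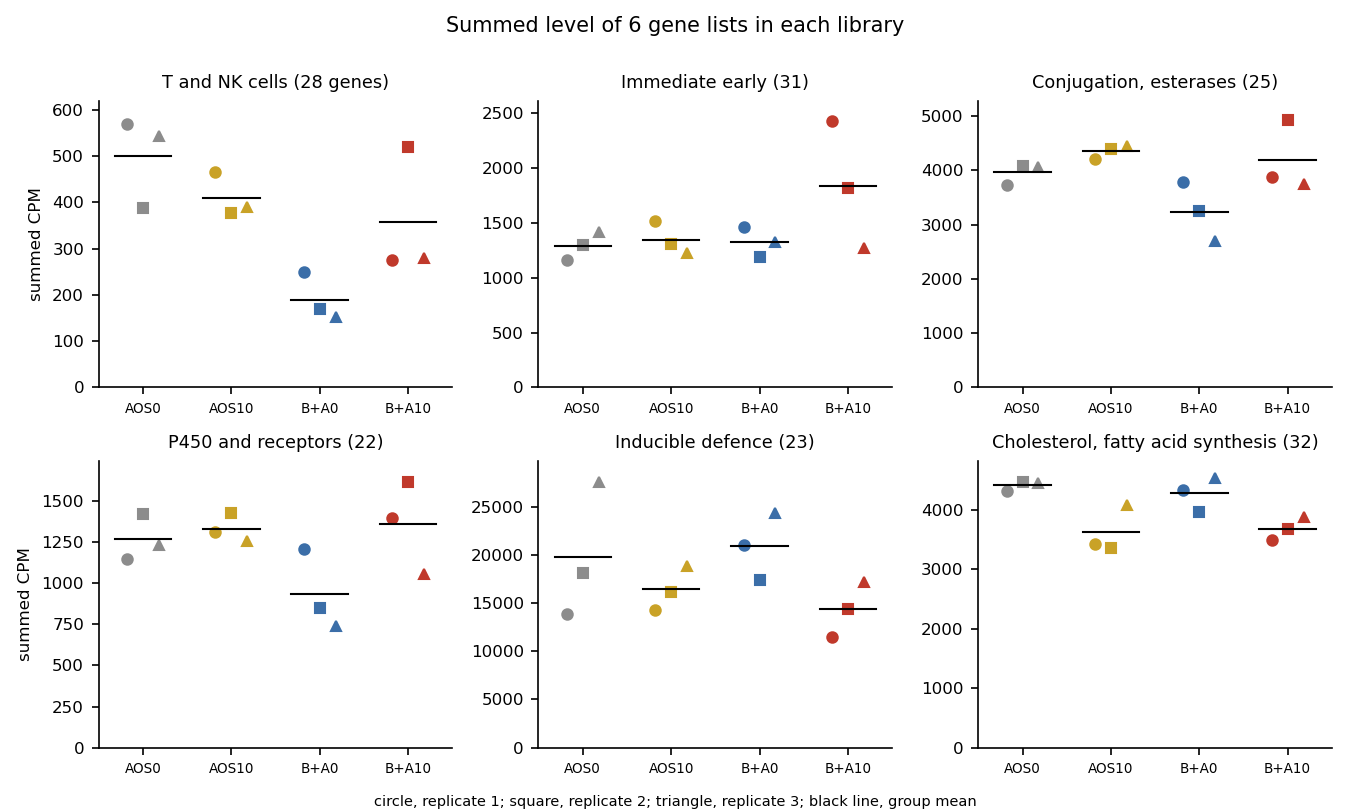
Summed level, in TMM-scaled CPM on y axes that start at 0, of the tested members of 6 gene lists in each of the 12 libraries by group; symbols mark the replicate and black lines the group mean. B+A10 replicate 2 (square) is the highest B+A10 library for T and natural killer cell genes at 519 CPM, replicate 1 (circle) for immediate early genes, and for cholesterol and fatty acid synthesis all B+A10 libraries lie below all B+A0 libraries.

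Several regulators of epithelial cells were higher without overlap. Pard3b, a relative of the polarity protein PAR3, had the smallest p of all genes. It was at 20.6, 19.0 and 17.6 CPM in B+A0 and 29.6, 28.6 and 30.1 CPM in B+A10, with AOS0 at 24.7 ± 0.805 and AOS10 at 24.5 ± 1.24 CPM (SD, n = 3), which lie between the busulfan groups (a log2 fold change of 0.63 with SE 0.09, and adjusted p = 0.0826 by the edgeR quasi-likelihood test). Klf3, a Kruppel-like repressor, was at 133, 127 and 111 CPM against 188, 172 and 162 CPM (a log2 fold change of 0.50, and adjusted p = 0.173 by the edgeR quasi-likelihood test). Fzd5, a receptor for Wnt ligands, was at 196, 221 and 199 CPM against 306, 288 and 249 CPM (a log2 fold change of 0.45). Dyrk2, a kinase of the p53 pathway, had 0.44 and Tent5a, which lengthens poly(A) tails, 0.56 on the log2 scale.

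Of 24 tested p53 targets 5 were higher (against 5.89% of all genes) and none lower at an unadjusted p under 0.05. Their median of 0.12 came to 0.047 when B+A0 replicate 3 was dropped and to 0.21 when B+A0 replicate 1 was dropped. Btg2, an antiproliferative factor, was at 34.6, 35.6 and 31.5 CPM against 52.7, 54.1 and 38.1 CPM, without overlap (a log2 fold change of 0.51). Cdkn1a, the p21 inhibitor of the cell cycle, was at 138, 99.1 and 92.1 CPM against 172, 199 and 112 CPM, with overlap (a log2 fold change of 0.55).

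Among metabolic genes, Pck1, a key enzyme of gluconeogenesis, was at 12.1, 6.61 and 3.09 CPM in B+A0 and 23.4, 70.6 and 13.4 CPM in B+A10. Replicate 2 was far above the others, and the groups did not overlap (a log2 fold change of 2.30 with SE 0.58, and adjusted p = 0.280 by the edgeR quasi-likelihood test). Without B+A10 replicate 2, which gave the lowest value among the fits without 1 library, it was 1.35. Aass, the first enzyme of lysine breakdown, had 0, 15 and 3 counts in B+A0 and 23, 174 and 69 in B+A10, against 5 to 164 in AOS0. Cd36, a fatty acid receptor, was at 7.03, 3.63 and 4.002 CPM against 7.28, 16.8 and 9.75 CPM (a log2 fold change of 1.20). Tph1, which makes serotonin in enterochromaffin cells, was low at 0.439, 0.953 and 0.485 CPM against 1.58, 1.5 and 2.88 CPM, without overlap (a log2 fold change of 1.65 with SE 0.38, and adjusted p = 0.255 by the edgeR quasi-likelihood test).

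Most genes of 3 housekeeping lists were below 0 by small amounts. Of 47 tested cytosolic ribosomal protein genes 46 were below 0 (median -0.10), with 3 lower at an unadjusted p under 0.05 (against 3.93% of all genes), and B+A0 replicate 1 was the lowest B+A0 library in all 47. Dropping B+A0 replicate 3 took their median to -0.0025 with none lower. Dropping B+A0 replicate 1 took it to -0.17 with 19 lower (against 695 of all 12496 genes in that fit). None was lower at that p when replicate 2 of either group was dropped. Proteasome genes had 33 of 35 below 0 (median -0.14), with 3 lower (against 3.93% of all genes). Over the fits that left out 1 library that count ranged from 0, where B+A10 replicate 2 was dropped, to 16, where B+A10 replicate 3 was dropped (against 1007 of all 12498 genes). Oxidative phosphorylation genes had 38 of 42 below 0 (median -0.06), with none at that p in either direction and 5 lower without B+A10 replicate 3.

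**Figure D5:**
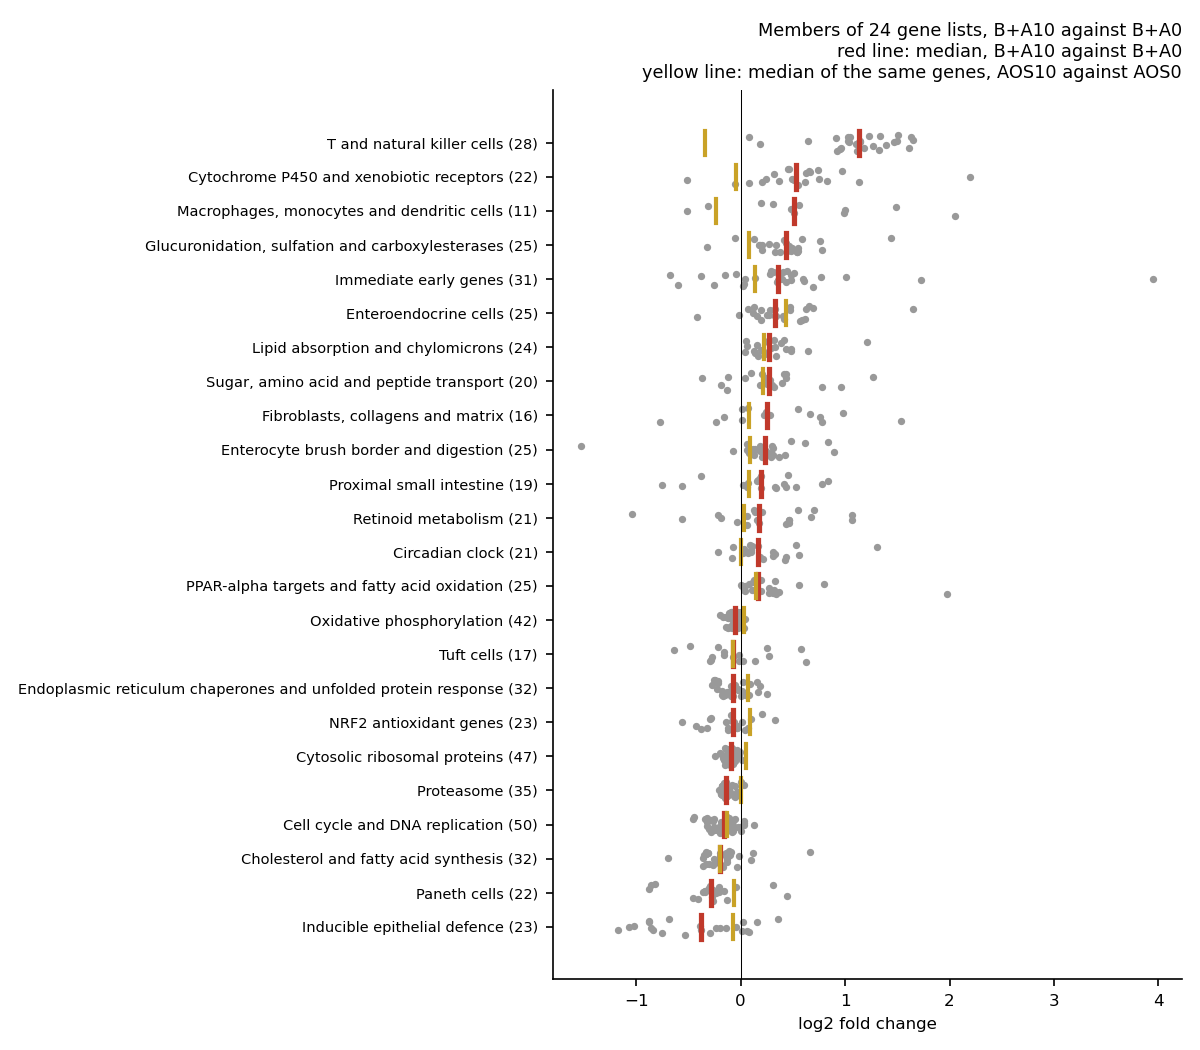
Log2 fold change of B+A10 over B+A0 (x axis) for each tested member (grey points) of 24 gene lists (y axis, number of genes in brackets); red lines mark the list median after busulfan and yellow lines the median of the same genes between AOS10 and AOS0. The T and natural killer cell median is 1.13 after busulfan and -0.34 without it, and the cholesterol and fatty acid synthesis median is -0.20 in both.

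The same AOS contrast without busulfan, AOS10 against AOS0, called no gene by edgeR at an adjusted p under 0.05 and 63 by DESeq2, with 3.2% of genes higher and 3.03% lower at an unadjusted p under 0.05. The test of the difference between the 2 contrasts, an interaction term, called no gene by edgeR either (smallest adjusted p 0.499) and 17 by DESeq2, with 4.19% of genes above and 2.65% below 0 at an unadjusted p under 0.05. In the T and natural killer cell list 22 of 28 members were above 0 at that p, with a median interaction of 1.53. The median of that list was -0.34 between AOS10 and AOS0, with no member at an unadjusted p under 0.05 in either direction. In each of the P450 and the conjugation lists 7 members were above 0 at that p, none below. Of 45 tested interferon-stimulated genes 13 had an interaction below 0 at that p. Their median was 0.09 after busulfan, with none at an unadjusted p under 0.05, and 0.54 without busulfan, with 23 higher and 1 lower. B+A0 replicate 1 was the highest B+A0 library in 44 of the 45, and without it the median after busulfan was 0.56, with 18 higher (against 1248 of all 12496 genes). Dropping B+A0 replicate 2 gave a median of -0.01, and dropping B+A0 replicate 3 gave -0.02.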

How the data were processed

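RNA-seq of total RNA was analysed from a deposited table of 16942 genes and 12 libraries, with groups and replicate numbers taken from the labels. Expected counts per gene, called read counts in the file headers, were deposited by the authors without normalization; 8.90% to 9.33% of values in a library were not whole (tolerance 1e-06), and all were rounded to whole numbers. The deposited expression values, whose unit the headers do not name, were taken as FPKM and used only in 1 alternative. The submitters' processing notes name mm10 as the build. The sources used here give no aligner, counter, annotation or strand setting, so reads of overlapping or antisense genes may be mixed. The table holds 8 columns that could not be tied to a sample, and they were left aside.

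The test was edgeR 4.0.16 in R 4.3.3: filterByExpr with the 4 groups (12329 genes kept), TMM (factors 0.969 to 1.025 in the 6 busulfan libraries), 1 quasi-likelihood model over all 12 libraries, so that the groups share 1 measure of spread, and Benjamini-Hochberg adjustment over all tested genes at 0.05. The SE is the log2 fold change divided by the square root of F. The test for B+A10 against B+A0 was also run on simulated counts with known changes. Those counts took their levels and spread from the fit to these data, so they do not check that spread. Total counts limit the precision of low values, and replicates differed by far more than counting noise. Gene lists (52, of which 50 had at least 3 tested genes) and the comparison itself were chosen with earlier results of these data known, so no list is independent support and no list was tested as a set. Named genes are the 10 smallest p per direction and the 10 largest differences per direction at an unadjusted p under 0.05 without overlap (both with a mean of at least 1 CPM, without unnamed genes and antigen receptor segments), up to 4 members with the smallest p per list and examples from it, genes called under an alternative, and 10 fixed markers. Some genes that this rule names are not described.

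Alternatives were 2 other filters, DESeq2 1.42.0, its size factors in edgeR, the 6 busulfan libraries alone, a replicate block, each library left out, and limma 3.58.1 on log2(FPKM + 1). Coordinates and promoters are from RefSeq GRCm38.p6, matched by gene ID (12282 genes matched). Figures were drawn with matplotlib 3.10.9.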

Additional observations from a re-analysis of the deposited data

Results flagged for a closer look

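For 6 named genes the B+A10 and B+A0 libraries did not overlap in one direction and the AOS10 and AOS0 libraries did not overlap in the other. The interaction term had an adjusted p of 0.499 for each of them (edgeR quasi-likelihood test), so none passed. Fzd5, a Wnt receptor, had a log2 fold change of 0.45 after busulfan and -0.12 without it (interaction 0.57). Its AOS0 libraries were at 230 to 245 CPM and its AOS10 libraries at 211 to 221 CPM. Itgax, an integrin of dendritic cells and some T cells, had 1.48 and -0.42 (interaction 1.90), with B+A0 at 0.536 to 0.909 CPM and AOS0 at 3.21 to 3.95 CPM. Gadd45g, a growth arrest and damage gene, had -0.60 and 0.20 (interaction -0.80). Pmaip1, which encodes the pro-apoptotic protein NOXA, had 0.54 and -0.16 (interaction 0.70). Kit, the stem cell factor receptor, had 0.29 and -0.25 (interaction 0.54), and Dsp, desmoplakin, had 0.19 and -0.17 (interaction 0.36). The genes were looked for among the named genes only.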

How the results depend on the processing

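Between B+A10 and B+A0 no gene was called by edgeR with DESeq2 size factors, with at least 1 CPM in 3 libraries, on the 6 busulfan libraries alone or by limma on FPKM values; 82 were called by DESeq2, 5 without a filter on low counts and 4 with the replicate block. Leaving out 1 library gave 0 to 51. The count at an unadjusted p under 0.05 was 639 on the 6 libraries alone (452 higher, 187 lower, against 726 and 484) and 614 to 2261 without 1 library. The interaction gave 17 calls by DESeq2 and 0 to 1 without 1 library, and AOS10 against AOS0 gave 63 by DESeq2 and 15 with the replicate block. Same-numbered B+A0 and B+A10 libraries had deviations correlated at -0.08, -0.16 and 0.03, so the numbers did not pair them; B+A0 replicate 1 correlated best with B+A10 replicate 2 (0.33).

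Of 147 named genes, 45 were called in at least 1 alternative and 5 changed sign in one. Mki67, at -0.00029 in the report's fit, was at 0.00745 by DESeq2, 0.00740 with DESeq2 size factors, 0.00516 without a filter, 0.00187 with 1 CPM, 0.0121 on the 6 libraries and 0.00280 with the replicate block, and -0.30 to 0.15 without 1 library. Dclk1 was at -0.029 by limma and -0.32 to 0.60 without 1 library. Without 1 library Olfm4 ranged from -0.056 to 0.30, Muc2 from -0.14 to 0.10 and Fgf15 from -2.97 to 0.053. The causes were not tested, beyond the fewer libraries in those fits.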

Other observations

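Genes of 3 further groups that the report leaves out are given as values. Of 23 tested antioxidant genes of the NRF2 pathway 3 were lower (against 3.93% of all genes) and 1 higher (against 5.89%) between B+A10 and B+A0 at an unadjusted p under 0.05. Gpx2, the glutathione peroxidase of gut epithelium, was at 1453, 1397 and 1913 CPM in B+A0 and 1239, 1042 and 1251 CPM in B+A10, without overlap (log2 fold change -0.43, adjusted p = 0.338, edgeR quasi-likelihood test). Gsr, glutathione reductase, was at 354, 399 and 414 CPM against 293, 285 and 316 CPM (log2 fold change -0.38), and Nfe2l2, which encodes NRF2 itself, was at 449, 494 and 418 CPM against 507, 501 and 557 CPM (log2 fold change 0.20).

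Of 21 tested circadian clock genes 4 were higher (against 5.89% of all genes) and 1 lower (against 3.93%) at that p. The higher count ranged from 1, where B+A0 replicate 3 was dropped, to 7, where B+A10 replicate 3 was dropped. Nr1d1, a clock repressor, was at 4.02, 4.59 and 4.002 CPM in B+A0 and 4.31, 22.2 and 4.78 CPM in B+A10, so its log2 fold change of 1.31 rests on B+A10 replicate 2 and ranged down to 0.12 without 1 library. Per1 was at 19.0, 36.7 and 32.3 CPM against 55.9, 41.9 and 29.5 CPM. Of 28 tested junction genes, Cldn2, the pore-forming claudin, was at 233, 255 and 258 CPM against 187, 168 and 233 CPM (log2 fold change -0.34), and Tjp1, the tight junction scaffold, at 110, 109 and 95.7 CPM against 108, 130 and 133 CPM (log2 fold change 0.23), both with overlapping groups.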
